A study of Mus musculus with 124 samples.

Results

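The proteasome subunit genes of the mouse were taken as every row of the 2 deposited expression tables whose gene name begins with Psm, a letter from a to g and a digit. This rule gave 48 of 17108 named genes in the cortex table and 47 of 13338 in the liver table, and 47 were in both. The difference was Psmc3ip, a meiotic recombination partner that carries the name of a proteasome subunit without being one, and it was measured in cortex only. Membership followed the gene name alone, but the set itself was chosen with earlier results of these data known. The remaining 47 genes fall into 8 of the 20S alpha ring (Psma1 to Psma8), 7 of the 20S beta ring (Psmb1 to Psmb7), 3 inducible beta subunits of the immunoproteasome (Psmb8, Psmb9 and Psmb10), 9 of the 19S base, 8 of the 19S lid, 5 activators and inhibitors (Psme1 to Psme4 and Psmf1) and 7 assembly chaperones (Psmd5, Psmd9, Psmd10 and Psmg1 to Psmg4).

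Proteins tagged with ubiquitin are degraded by the 26S proteasome, in which a barrel-shaped 20S core is capped by the 19S regulatory particle. The alpha rings of the core form its gate and the beta rings carry the cutting sites, in Psmb5, Psmb6 and Psmb7. The 19S base unfolds substrates with its ring of ATPases (Psmc1 to Psmc6), and the lid removes ubiquitin with the enzyme Psmd14. In the immunoproteasome, Psmb8, Psmb9 and Psmb10 stand in for Psmb5, Psmb6 and Psmb7, which changes the peptides made for antigen presentation. In neurons the proteasome takes part in turnover of synaptic proteins, and in liver it removes many metabolic enzymes and clock proteins.

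Cortex and liver of 62 mice were profiled by RNA-seq of whole tissue, with both tissues of each mouse sequenced. At 11 to 12 weeks of age the mice lived in alternating 12 h of light and 12 h of dark with free access to food, and they were killed under isoflurane anaesthesia. The sources used here give neither strain nor sex. Undisturbed control mice were taken at Zeitgeber time (hours after light onset) ZT0 (n = 8), ZT3 (n = 3), ZT6, ZT12 and ZT18 (n = 5 each). By label, 4 of the ZT0 mice were from the start and 4 from the end of the baseline day. Sleep was prevented by gentle handling from the next light onset in the remaining mice, of which 3 were taken at each time, named by the hours since the baseline day began. T27 had 3 h and T30 had 6 h of deprivation with no recovery. All later groups had 6 h of deprivation and then undisturbed recovery, of 6 h at T36, 12 h at T42, 18 h at T48, 24 h at T54, 30 h at T60, 36 h at T66, 42 h at T72, 48 h at T78 and about 7 days at T192 and T198. The reference of a deprived group was the undisturbed group at its own time of day: T27 was set against ZT3, T30, T54, T78 and T198 against ZT6, T36 and T60 against ZT12, T42 and T66 against ZT18, and T48, T72 and T192 against ZT0. Several comparisons therefore share their control libraries. All controls are labelled as not sleep deprived and with times of the baseline day. The codes of controls J70N1, J70N2, J76N1 and J76N2 match those of the T192 (J70) and T198 (J76) mice. The day on which these controls were taken is therefore not certain.

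Expression was in log2 CPM (reads of a gene as a share of its library), with 1 separately normalised table per tissue. A gene was called where the adjusted p of limma (Benjamini-Hochberg over all named genes of the table) was under 0.05, and differences are given with their standard error (SE). The mean log2 CPM of the 8 cortical neuron markers was between 9.24 and 9.45 in the cortex libraries, and that of the 6 hepatocyte markers was between 12.6 and 13.1 in the liver libraries. Of these lists, 2 neuron markers were measured in liver and 3 hepatocyte markers in cortex, where their mean was at most 2.33 and 1.71. The root mean square difference over all genes between 2 replicates of a group was 0.231 to 0.377 log2 units in cortex and 0.329 to 0.603 in liver. The median SE of a deprived against control difference over the subunit genes was accordingly about 2 times larger in liver than in cortex at T30 (0.096 against 0.046). In whole tissue, fewer cells of a type and less RNA per cell cannot be told apart.

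Levels of different genes can be compared only per length, here as CPM per kb of annotated exon (the union of all exons of a gene in GENCODE M21, median of 26 control libraries a tissue). In cortex the 19S base had a median level of 30.7, the lid 20.3, the 20S beta ring 20.01, the alpha ring 18.7, the activators and inhibitor 7.85 and the assembly chaperones 3.75 CPM per kb. In liver the same groups had 32.5, 18.4, 32.8, 28.1, 20.03 and 4.31 CPM per kb. The ATPase gene Psmc5 was highest in cortex at 81.6 CPM per kb, and the alpha ring gene Psma6 was highest in liver at 62.7. Psma8, the alpha subunit of the testis proteasome, was lowest in both tissues, at 0.126 and 0.313 CPM per kb. The interferon-responsive activators Psme1 and Psme2, which form the 11S cap, had 7.85 and 7.25 CPM per kb in cortex and 26.2 and 32.0 in liver. These lengths include retained introns and readthrough transcripts for some genes, such as Psmd9, which lowers their value per kb.

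The inducible beta subunits were next set against their constitutive partners within each table. In control cortex, Psmb8 stood at 2.51% of Psmb5 per length and Psmb9 at 1.06% of Psmb6, whereas in control liver they stood at 19.5% and 6.71%. Psmb10 stood at 59.0% of Psmb7 in cortex and at 36.9% in liver, so this pair had the larger share in cortex. The cortex and liver libraries did not overlap in the first 2 pairs and met at the edge in the last. On the log2 scale per length, Psmb8 minus Psmb5 ran from -5.96 to -4.70 in cortex and from -2.81 to -1.75 in liver. Psmb9 minus Psmb6 ran from -7.87 to -5.84 in cortex and from -4.42 to -3.12 in liver, and Psmb10 minus Psmb7 from -0.96 to -0.59 and from -1.82 to -0.91. These shares are across tables normalised separately and rest on exon lengths, and they are given without a test.

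**Figure D1:**
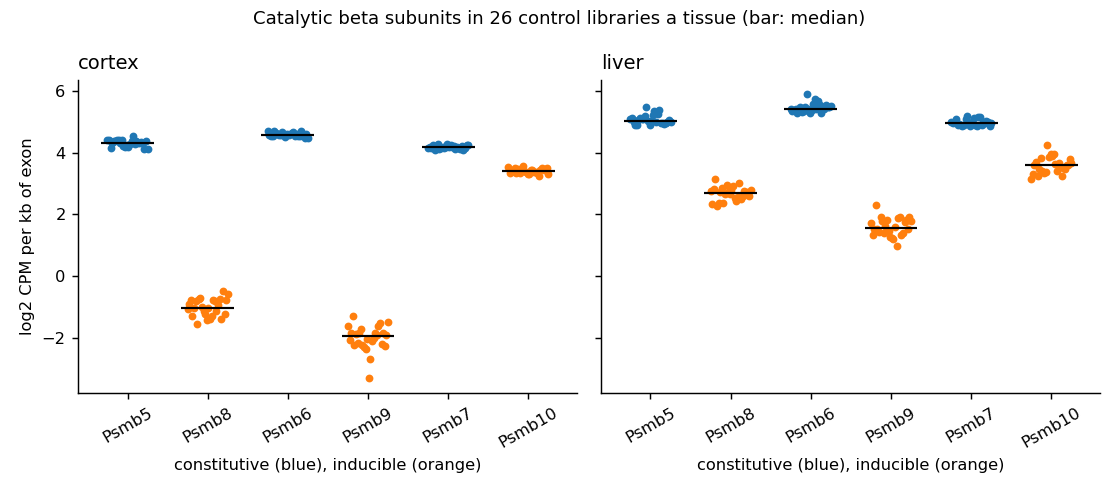
Log2 CPM per kb of exon of the 3 constitutive catalytic beta subunit genes (blue) and the 3 inducible ones (orange) in the 26 control libraries of each tissue, with 1 point per library and bars at the median. Psmb8 and Psmb9 lie far below Psmb5 and Psmb6 in cortex (2.51% and 1.06% of them) and less far in liver (19.5% and 6.71%). Psmb10 lies less far below Psmb7, at 59.0% of it in cortex and 36.9% in liver.

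During sleep deprivation the subunit gene with the smallest p in cortex was Psmf1, which encodes PI31, a protein that binds the 20S core, inhibits it in the test tube and serves as an adaptor for proteasome transport in axons. Psmf1 spans chr2:151715812-151744186 on the minus strand (GRCm38, GENCODE M21). At ZT6 the 5 control cortices had 5.21, 5.27, 5.31, 5.33 and 5.39 log2 CPM, and the 3 cortices after 6 h of deprivation had 4.84, 4.92 and 4.93. The groups did not overlap, and each deprived library lay within or below the range of the ZT0 controls, 4.87 to 5.06 with a median of 4.93. Psmf1 fell by 0.40 on the log2 scale at T30 (SE 0.056, 95% interval -0.51 to -0.29, limma adjusted p = 1.7e-07, 1.32-fold lower). After 3 h, at T27, the deprived cortices had 4.84, 4.94 and 4.97 log2 CPM against 5.15, 5.16 and 5.19 in the ZT3 controls. Psmf1 fell by 0.25 there (SE 0.061, limma adjusted p = 0.0026), again without overlap. Both calls were kept when any 1 library was left out (limma adjusted p of 0.00376 to 0.031 at T27 and 9.49e-08 to 1.39e-05 at T30).

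After 6 h of recovery, cortical Psmf1 had 5.15, 5.25 and 5.36 log2 CPM at T36 against 5.23 to 5.34 in the ZT12 controls, a difference of -0.04 (SE 0.056). After 12 h of recovery it had 4.997, 5.02 and 5.20 at T42 against 4.86 to 4.99, all above the controls, with a difference of +0.15 that was not called (SE 0.056, limma adjusted p = 0.203). In liver the same mice had 4.63, 4.71 and 4.78 log2 CPM of Psmf1 at T30 against 4.66 to 4.78 in the ZT6 controls, a difference of -0.01 with a 95% interval of -0.17 to 0.14. The cortical and the liver difference at T30 differed from each other by -0.39 (SE 0.093, limma interaction adjusted p = 0.0024). Of the genes measured in both tissues, 10.8% were called in that test, and Psmf1 was the only 1 of the 47 subunit genes. At T27, where 1.68% of genes were called, and at T42, where 0% were, limma called 0 of the 47 in the tissue test, with 1 gene at an unadjusted p under 0.05 each time.

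**Figure D2:**
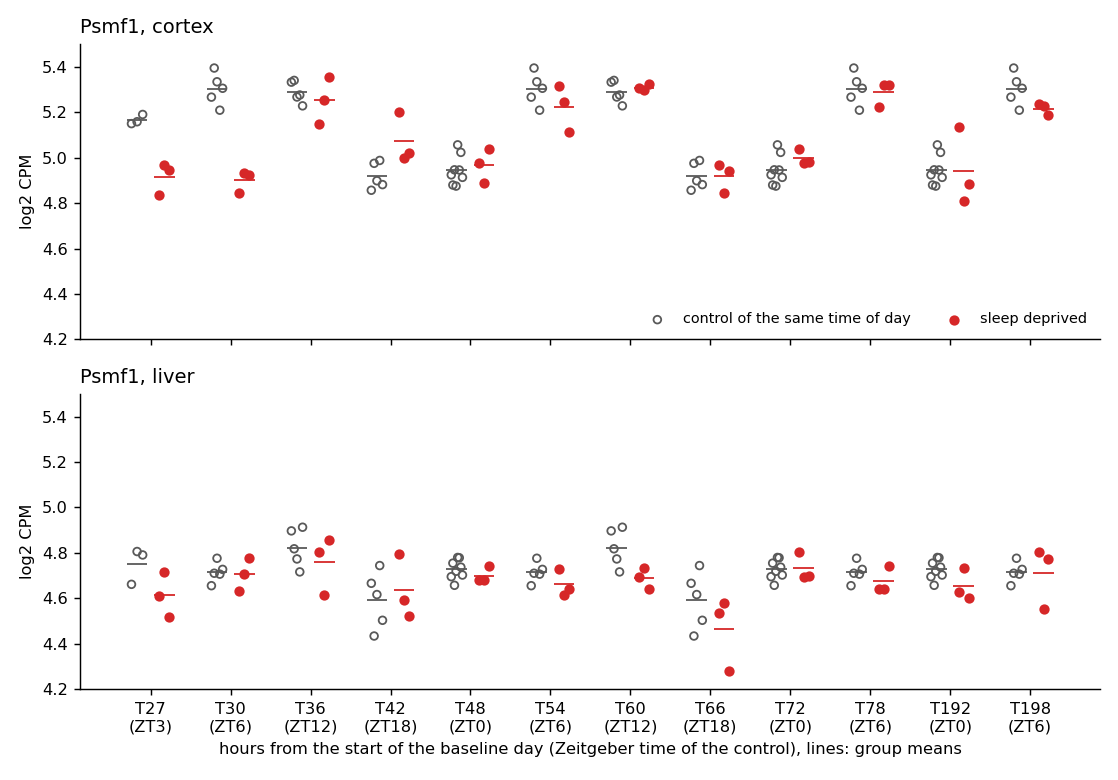
Log2 CPM of Psmf1 in every library of cortex (top) and liver (bottom) at the 12 deprived times (red) beside the controls of the same time of day (open circles), with short lines at group means. In cortex the T27 and T30 libraries, from 4.84 to 4.97, lie below their controls, from 5.15 to 5.39, and in liver the T30 libraries lie among theirs.

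In cortex at T27, 2 of the 48 genes were called, 1 higher and 1 lower, where 16.4% of all genes were. At T30, 7 of the 48 were called, 4 higher and 3 lower, where 32.4% of all genes were, and 13 had an unadjusted p under 0.05. The share of subunit genes called was thus below that of all genes at both times, and this difference in share was not tested. The median difference of the 48 genes was +0.05 at T27 and -0.01 at T30, beside -0.01 over all genes at both times. The 95% interval of the difference lay within 1.2-fold in either direction for 39 of the 48 genes at T27 and 37 at T30.

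The activator Psme3 (PA28 gamma, the nuclear cap that opens the core without ubiquitin) was called in both tissues at T30. Its gene lies at chr11:101316213-101323537 on the plus strand. In cortex it had 6.75, 6.78 and 6.85 log2 CPM against 6.64, 6.68, 6.68, 6.70 and 6.73 at ZT6, and it rose by 0.10 (SE 0.033, limma adjusted p = 0.0121). At T27 it had 6.73, 6.76 and 6.77 against 6.61, 6.67 and 6.67 and rose by 0.10 (SE 0.036, limma adjusted p = 0.0391). In liver it had 5.91, 5.91 and 5.93 at T30 against 5.57, 5.61, 5.65, 5.74 and 5.84, and it rose by 0.28 (SE 0.082, limma adjusted p = 0.0197, 1.21-fold higher). The groups did not overlap in any of these 3 comparisons, but the calls were less firm than for Psmf1. The cortical call at T27 was lost when any of the 6 libraries was left out (limma adjusted p of 0.0525 to 0.179), that of cortex at T30 without T30S4 (0.134), and that of liver at T30 without T30S1 (0.0745) or T30S4 (0.0603). With libraries centred on their median the T27 value was 0.0868, and with the 3 controls of the same batch the cortical T30 value was 0.0721.

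In cortex at T30, 3 of the 9 genes of the 19S base rose, all of them ATPases of the ring, a share near the 32.4% of all genes called there in either direction. Psmc5 had 6.89, 6.91 and 6.97 log2 CPM against 6.69, 6.70, 6.75, 6.82 and 6.89 at ZT6, and it rose by 0.16 (SE 0.043, limma adjusted p = 0.0034). This call was kept whichever library was left out (adjusted p of 0.000401 to 0.0348). Psmc1 had 6.76, 6.79 and 6.80 against 6.60 to 6.71 and rose by 0.13 (limma adjusted p = 0.0206), and Psmc4 had 6.06, 6.12 and 6.12 against 5.95 to 6.07 and rose by 0.10 (0.0353). Psmc1 and Psmc5 lay above all of their controls, and Psmc4 met theirs at the edge. Leaving out T6N2, T30S1 or T30S4 ended the call of Psmc1 (0.064 to 0.0687), and leaving out T6N2, T6N4, T30S3 or T30S4 ended that of Psmc4 (0.0774 to 0.132), as did the use of the 3 same-batch controls only (0.0602). The other 6 base genes, which include Psmd1 and Psmd2, the scaffold subunits, and Psmd4, a ubiquitin receptor, were not called. The median difference of all 9 was +0.03.

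In the alpha ring, 2 of the 8 genes fell in cortex at T30, where 32.4% of all genes were called. Psma4 had 5.47, 5.55 and 5.58 log2 CPM against 5.58, 5.66, 5.74, 5.75 and 5.78, and it fell by 0.17 (SE 0.051, limma adjusted p = 0.0086). Psma6 had 5.63, 5.68 and 5.71 against 5.75 to 5.82 and fell by 0.12 (SE 0.046, limma adjusted p = 0.0380). Psma4 lost its call without T30S3 (0.0724). Psma6 lost it without any of 6 of the 8 libraries (T6N3, T6N4, J76N1, J76N2, T30S3 and T30S4, with adjusted p of 0.0508 to 0.179), and with the 3 same-batch controls only (0.0885). Among the rest of the alpha ring, 4 of the other 6 genes had a negative difference.

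None of the 7 beta ring genes, 8 lid genes, 3 immunoproteasome genes and 7 assembly chaperones was called by limma in cortex at T30, and 2, 1, 1 and 1 of them had an unadjusted p under 0.05. Of the constitutive catalytic genes, Psmb5 differed by +0.15 (SE 0.067, limma adjusted p = 0.0815), Psmb6 by +0.10 (0.116) and Psmb7 by -0.07 (0.207). Psmd8 of the lid differed by +0.08 (limma adjusted p = 0.0662) and Psmg2, a chaperone of the alpha ring, by -0.16 (0.0542). Psmb9 was barely expressed, at -0.93, -0.30 and -0.17 log2 CPM against -0.37, -0.02, 0.05, 0.40 and 0.57. Its difference of -0.59 (SE 0.24, limma adjusted p = 0.0515) sits at the threshold, and it was called with log2(CPM + 1) in place of log2 CPM (0.0464) and with no batch term (0.0405). Psmb8 differed by -0.01 (SE 0.17) and Psmb10 by +0.08 (SE 0.078).

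**Figure D3:**
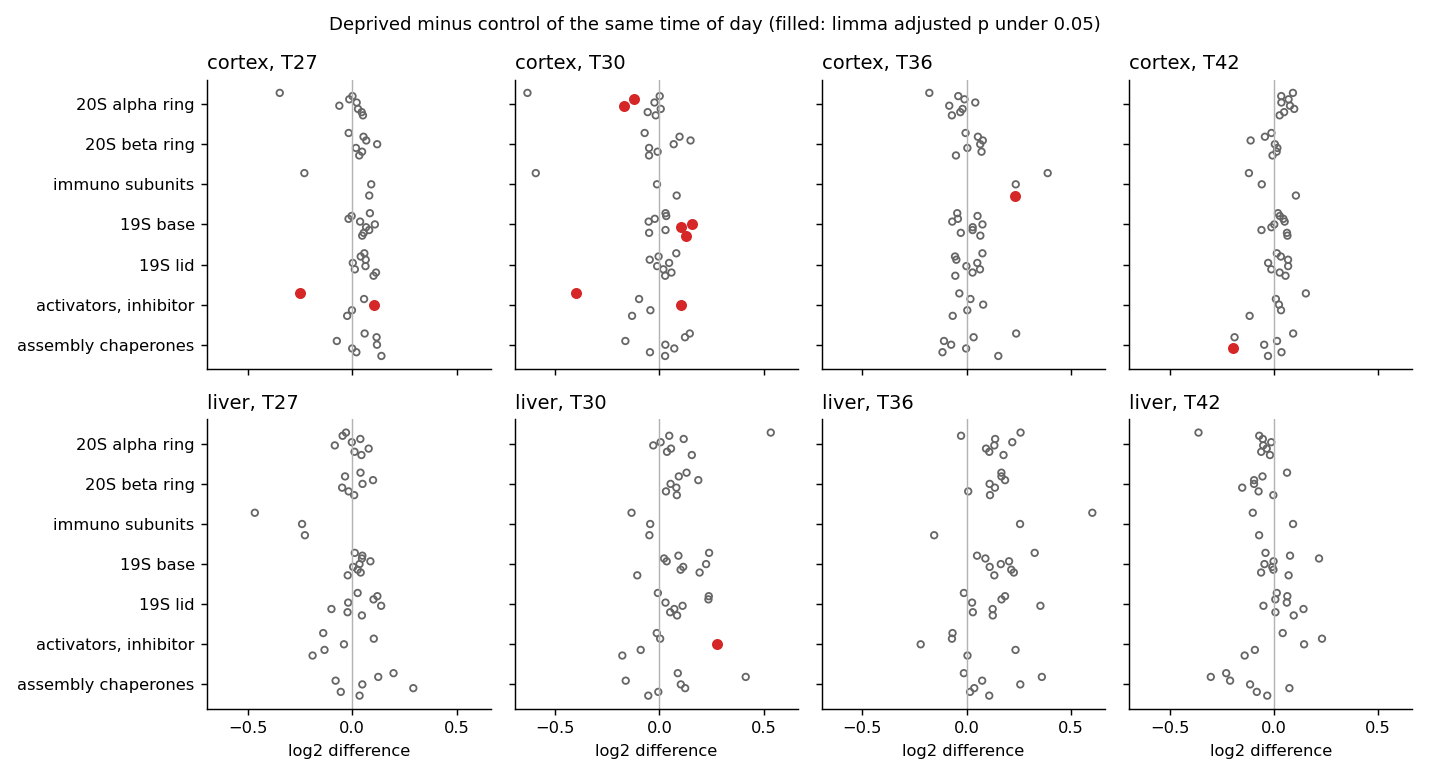
Log2 difference, deprived minus control of the same time of day, for each of the 47 genes by group at T27, T30, T36 and T42 in cortex (top) and liver (bottom), with filled points where the limma adjusted p is under 0.05. Psmf1 at -0.40 is the lowest filled point at T30 in cortex, 3 genes of the 19S base are filled to its right, and Psme3 at +0.28 is the filled point in liver.

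In liver, limma called 0 of 47 genes at T27, where 1.03% of all genes were called and 2 subunit genes had an unadjusted p under 0.05. At T30 it called 1, Psme3, where 12.8% of all genes were called. The median difference at T30 was +0.07, beside 0.00 over all genes, and 35 of the 47 genes had a positive difference. The members with the smallest p in the other groups at T30 were Psmd7 of the lid (+0.24, limma adjusted p = 0.0618), Psmd4 of the base (+0.24, 0.119), the chaperone Psmg3 (+0.41, 0.140), Psma1 (+0.16, 0.175), Psmb5 (+0.19, 0.316) and Psmb9 (-0.13, 0.725). Psmb6 differed by +0.09 and Psmb7 by +0.13, and Psmb8 and Psmb10 by -0.04 and -0.05, none of them called. The 95% interval lay within 1.2-fold for 17 of the 47 genes. In simulated liver data at T30, 3 of 67 genes given a log2 change of 0.25 were called, and 21 of 67 given 0.5. They were drawn from all 13338 genes, of which only 67, 67 and 66 were changed, by 0.25, 0.5 and 1. This is a smaller share than the 12.8% called in the data, so the same p gives a larger adjusted p in the simulation. The simulated counts therefore do not give the share that would be called in these livers. Of the 3 ATPases called in cortex at T30, Psmc5 differed by +0.22 in liver, Psmc4 by +0.11 and Psmc1 by -0.11, none called there. The tissue test called none of these 3 at T30 (limma interaction adjusted p = 0.791, 0.969 and 0.0688).

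After 6 h of recovery the pattern in liver was a small difference in one direction over most subunits. At T36, 40 of the 47 genes had a positive difference, with a median of +0.12 beside -0.01 over all genes. A lean of this kind was not limited to deprived livers. Between undisturbed livers, ZT3 against ZT0, 41 of the 47 were positive, with a median of +0.06 and 0 called. The mean over all 47 genes was 5.49 to 5.77 log2 CPM in the 3 deprived livers and 5.38 to 5.62 in the 5 ZT12 controls, so the groups overlapped. Limma called 0 of the 47, where 1.69% of all genes were called, and 12 had an unadjusted p under 0.05 (11 higher and 1 lower). The positive genes included 9 of 9 in the base, 7 of 7 in the beta ring, 7 of 8 in the alpha ring and 7 of 8 in the lid. The smallest p was that of Psmd14, the deubiquitinase of the lid, which had 5.51, 5.59 and 5.82 log2 CPM against 5.05 to 5.46, all above the controls, a difference of +0.35 (SE 0.104, limma adjusted p = 0.0657). Without T36S4 limma called 5 of the 47, without T12N1 it called 2 and without T36S1 1. The share of all genes called in these refits is not given, so the counts are not read as a result about the subunits. The hepatocyte markers had a median difference of +0.08, with 4 of 6 positive, and the endothelial markers of -0.13, with 0 of 6 positive. Their part in the result was not tested.

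At T36, 2 genes differed between the tissues by the interaction test, where 3.4% of all genes did. Psmd4 had 6.14, 6.35 and 6.61 log2 CPM in deprived liver against 5.89, 5.93, 5.97, 6.02 and 6.30, and 5.91, 5.92 and 5.93 in deprived cortex against 5.92 to 6.01. Its difference was +0.33 in liver and -0.05 in cortex, and the 2 differed by -0.37 (SE 0.107, limma adjusted p = 0.0336). Psme3 had 5.66, 5.73 and 5.98 in deprived liver against 5.90 to 6.20, and 6.71, 6.76 and 6.77 in deprived cortex against 6.59 to 6.72. Its difference was -0.22 in liver and +0.08 in cortex, and these differed by +0.30 (SE 0.085, limma adjusted p = 0.0324). In neither tissue was either gene called on its own at T36. Leaving out T12N2, T12N4, T12N6 or T36S2 ended the call of Psmd4 (0.0527 to 0.342), and leaving out T12N2, T36S1 or T36S4 that of Psme3 (0.0889 to 0.221). With cortex and liver paired within each animal, Psme3 had a limma adjusted p of 0.067 and Psmd4 of 0.0495.

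In cortex at T36, 1 of the 48 genes was called, where 12.5% of all genes were. This was Psmb10, the inducible subunit that replaces Psmb7, with 4.33, 4.35 and 4.44 log2 CPM against 4.08, 4.09, 4.16, 4.18 and 4.21 in the ZT12 controls. The groups did not overlap, and Psmb10 rose by 0.23 (SE 0.078, limma adjusted p = 0.0414). Psmb9 differed by +0.39 (SE 0.24) and Psmb8 by +0.24 (SE 0.17), so that the 3 inducible subunits had positive differences, of which 1 was called. The call of Psmb10 was lost in 7 of the 8 refits that left out a library (T12N1, T12N2, T12N4, T12N5, T36S1, T36S2 and T36S4, with limma adjusted p of 0.0523 to 0.160), and with the 3 controls of the same batch only (0.0745).

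Of all genes, 12.5% were called in cortex at T36. Of 6 endothelial markers measured, 3 rose there and all 6 had a positive difference, with a median of +0.29. Their mean was 4.55 to 4.69 log2 CPM in the deprived cortices and 4.24 to 4.50 in the ZT12 controls. The ZT0 controls stood higher, at 4.77 to 4.92. Over the control times, all 6 markers were called and lowest at ZT12. Psmb10 was not called over these times in cortex (limma F test adjusted p = 0.582). Its means were 4.21 log2 CPM at ZT0, 4.14 at ZT12 and 4.13 at ZT18. At T36, 2 of the 11 genes of antigen presentation rose. B2m, the light chain of the class I molecule, rose by 0.18 (limma adjusted p = 0.0227). The peptide transporter subunit Tap2 rose by 0.28 (0.0454). The lymphocyte markers were near the floor, with 2 of 8 measured and a mean of at most 0.85 log2 CPM in any cortex library. The part of the endothelial markers in the difference of Psmb10 was not tested.

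At T48 the 3 inducible subunits were on the other side in cortex, with differences of -0.37 for Psmb9, -0.22 for Psmb8 and -0.22 for Psmb10 (limma adjusted p of 0.515, 0.621 and 0.117). B2m, 1 of the 11 genes of antigen presentation, fell by 0.21 there (limma adjusted p = 0.0211), where 1.49% of all genes were called. Earlier, at T27 and T30, Tap1 of the same list fell by 0.67 and 0.57 (limma adjusted p = 0.000860 and 0.000853). Of all genes, 16.4% and 32.4% were called at these times. B2m and Tap1 are single genes of the 11, and the rest of the list is not given for these 3 times. No direction of the list is therefore read from them. Tap1 lies beside Psmb9 on chromosome 17 and shares a promoter region with it. In cortex Psmb9 was called at neither T27 (-0.23) nor T30 (-0.59), and common control of the pair was not tested. In liver at T36, Psmb8 had 4.70, 4.75 and 4.84 log2 CPM against 4.43 to 4.71 and Psmb9 had 3.57, 3.84 and 4.26 against 3.09 to 3.69, differences of +0.26 and +0.60 that were not called (limma adjusted p = 0.356 and 0.112), and Psmb10 differed by -0.16.

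At T42 in cortex the only gene called of 48 was Psmd9 (where 1.03% of all genes were called), a chaperone that holds Psmc3 and Psmc6 together while the base is built. It had 4.22, 4.22 and 4.23 log2 CPM after 12 h of recovery against 4.38 to 4.45 with a median of 4.43 in the ZT18 controls. The groups did not overlap, and Psmd9 fell by 0.20 (SE 0.046, limma adjusted p = 0.0167). In the controls ZT18 is the time of the highest level of Psmd9 in cortex, and the deprived value lies within the 4.13 to 4.40 of the other 4 control times. The call was lost without T18N2 (0.0607), T42S2 (0.0662) or T42S6 (0.0966). In liver at T42, limma called 0 of 47, and 0 had an unadjusted p under 0.05 (0% of all genes were called).

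From T48 to T198, limma called no subunit gene in either tissue. In cortex 1.49% of all genes were called at T48 and 0% at each later time, and in liver 0.015% at T48 and 0% later. Unadjusted p under 0.05 was reached in cortex by 4 genes at T48, 5 at T54, 21 at T60, 1 at T66, 0 at T72, 4 at T78, 2 at T192 and 4 at T198, and in liver by 2, 2, 1, 3, 1, 6, 0 and 1. The intervals were narrow in cortex, where those of 37 to 41 of the 48 genes lay within 1.2-fold at each of these times, against 9 to 26 of the 47 in liver. About 7 days after deprivation the median difference was -0.03 at T192 and +0.01 at T198 in cortex and +0.02 and +0.03 in liver. The farthest single value in cortex was that of the barely expressed Psma8, at -1.10 for T198 (SE 0.38, limma adjusted p = 0.515).

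Several of these late groups lay mainly to one side of their controls, and the most genes without overlap were in cortex at T60 and in liver at T78. In cortex at T60, 47 of the 48 genes had a positive difference, with a median of +0.09 (median SE 0.048) beside 0.00 over all genes. The 21 genes with an unadjusted p under 0.05 were all higher. In 17 of 48 genes the 3 deprived libraries lay above all 5 ZT12 controls, where 4.33% of all genes did. The mean over the 48 genes was 4.94 to 4.998 log2 CPM in the deprived cortices and 4.85 to 4.91 in the controls, without overlap. The smallest adjusted p was 0.383, for Psma5 (+0.17, SE 0.045). All 3 T60 libraries came from the second animal batch, as did 2 of the 5 controls, and against these 2 the median difference was +0.09, with 46 of 48 positive. Oligodendrocyte markers had positive differences in 5 of 5, with a median of +0.17 and means of 7.75 to 7.93 log2 CPM against 7.46 to 7.79, and their part was not tested.

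In liver at T78, 35 of the 47 genes had a positive difference, with a median of +0.11 beside +0.01 over all genes. In 18 of the 47 the deprived livers lay above all ZT6 controls, where 5.89% of all genes did, among them 6 of the 7 beta ring genes and 5 of the 8 alpha ring genes. Psma1 had the smallest p, with 6.51, 6.54 and 6.65 log2 CPM against 6.28 to 6.44 (+0.20, SE 0.076, limma adjusted p = 0.704). The 3 inducible subunits were on the other side, with differences of -0.20 to -0.10. Kupffer cell markers, those of the resident macrophages of the liver, had negative differences in 6 of 6 with a median of -0.93. Their mean was 3.01 to 3.62 log2 CPM in the deprived livers and 3.74 to 5.20 in the controls. Endothelial markers were negative in 6 of 6 with a median of -0.33, and the part of both lists in the result was not tested. Other livers also lay mainly to one side, with no gene called. The median was +0.05 at T48 with 35 of 47 positive, +0.08 at T54 with 37, -0.10 at T66 with 9, +0.10 at T72 with 40 and +0.03 at T198 with 34.

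**Figure D4:**
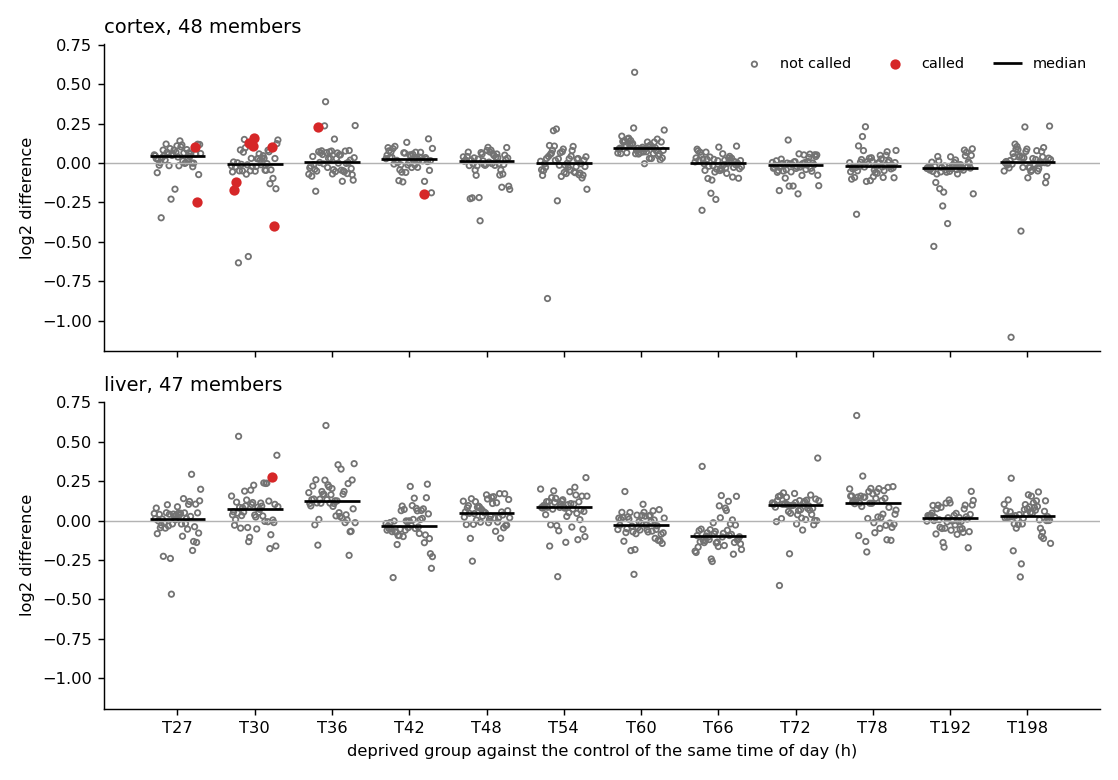
Log2 difference of every subunit gene at the 12 deprived times against the control of the same time of day, in cortex (48 genes) and liver (47 genes), with filled points for called genes and bars at the median. Called genes appear at T27 to T42 in cortex and at T30 in liver, and the medians farthest from 0 are +0.09 at T60 in cortex and +0.12 at T36 in liver.

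Time of day in undisturbed mice was tested over the 5 control times. There, limma's F test called 15 of the 47 genes in liver, where 47.1% of all genes were called, and 7 of the 48 in cortex, where 41.9% were. The range between the highest and lowest group mean had a median of 0.20 log2 units over the liver subunit genes beside 0.42 over all liver genes, and 0.10 beside 0.21 in cortex. In liver the called genes were 4 of 8 in the lid, 3 of 5 activators and inhibitors, 3 of 7 chaperones, 2 of 3 inducible subunits, 2 of 9 in the base, 1 of 8 in the alpha ring and 0 of 7 in the beta ring, where 0 also had an unadjusted p under 0.05 in limma and the ranges were 0.09 to 0.23.

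Psmd11, the lid subunit whose phosphorylation by protein kinase A raises proteasome activity, had the smallest p in liver. Its gene spans chr11:80428615-80473248 on the plus strand. It had 6.75 to 6.89 log2 CPM at ZT0 with a median of 6.82, 6.82, 6.84 and 6.89 at ZT3, 6.52 to 6.62 at ZT6, 6.24, 6.26, 6.30, 6.32 and 6.33 at ZT12 and 6.46 to 6.60 at ZT18. The ZT12 libraries lay below every library of the other times, and the range of the means was 0.56 (1.48-fold, limma F test adjusted p = 7.7e-12). In cortex its means were not called.

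Psmb10 moved the other way in liver, with means of 4.16 at ZT0, 4.30 at ZT3, 4.45 at ZT6, 4.76 at ZT12 and 4.27 at ZT18 (SD 0.057 to 0.20). The 5 livers at ZT12 had 4.62, 4.67, 4.73, 4.74 and 5.03 log2 CPM and the 8 at ZT0 had 3.93 to 4.60 with a median of 4.13. The range was 0.59, or 1.51-fold (limma F test adjusted p = 2.0e-05). Psmd9 had means of 4.66, 4.64, 4.90, 5.11 and 4.73 in the same order, with 5.02 to 5.23 at ZT12 against 4.55 to 4.82 at ZT0, which did not overlap (range 0.47, limma F test adjusted p = 4.5e-05). Psme3 was highest at ZT12 with a mean of 6.06 and lowest at ZT6 with 5.68 (adjusted p = 0.00061). These 4 calls were kept whichever library was left out. Of the other 11 called genes, 7 lost their call in some of the 26 refits that left out a control library, Psma1 in 1, Psmd4 in 2, Psmc2 in 4, Psmf1 in 6, Psme1 in 7, Psmg1 in 11 and Psmb8 in 14.

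Of the 15 called liver genes, 5 were highest at ZT3 (Psma1, Psmc2, Psmd3, Psmd4 and Psmd11) and 5 at ZT12 (Psmb10, Psmd9, Psme1, Psme3 and Psmf1). At ZT18, 3 were highest (Psmd5, Psmd14 and Psmg1), while Psmd7 was highest at ZT0 and Psmb8 at ZT6. At ZT12, 7 were lowest, and all 7 belong to the base, the lid or the alpha ring (Psma1, Psmc2, Psmd3, Psmd4, Psmd7, Psmd11 and Psmd14). None of the called activators, inhibitors and chaperones was lowest at ZT12. Against the ZT0 controls, limma called 0 liver genes at ZT3, 6 at ZT6, 13 at ZT12 and 3 at ZT18, where 0.21%, 19.7%, 28.7% and 13.5% of all genes were called, and at ZT3 0 had an unadjusted p under 0.05.

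**Figure D5:**
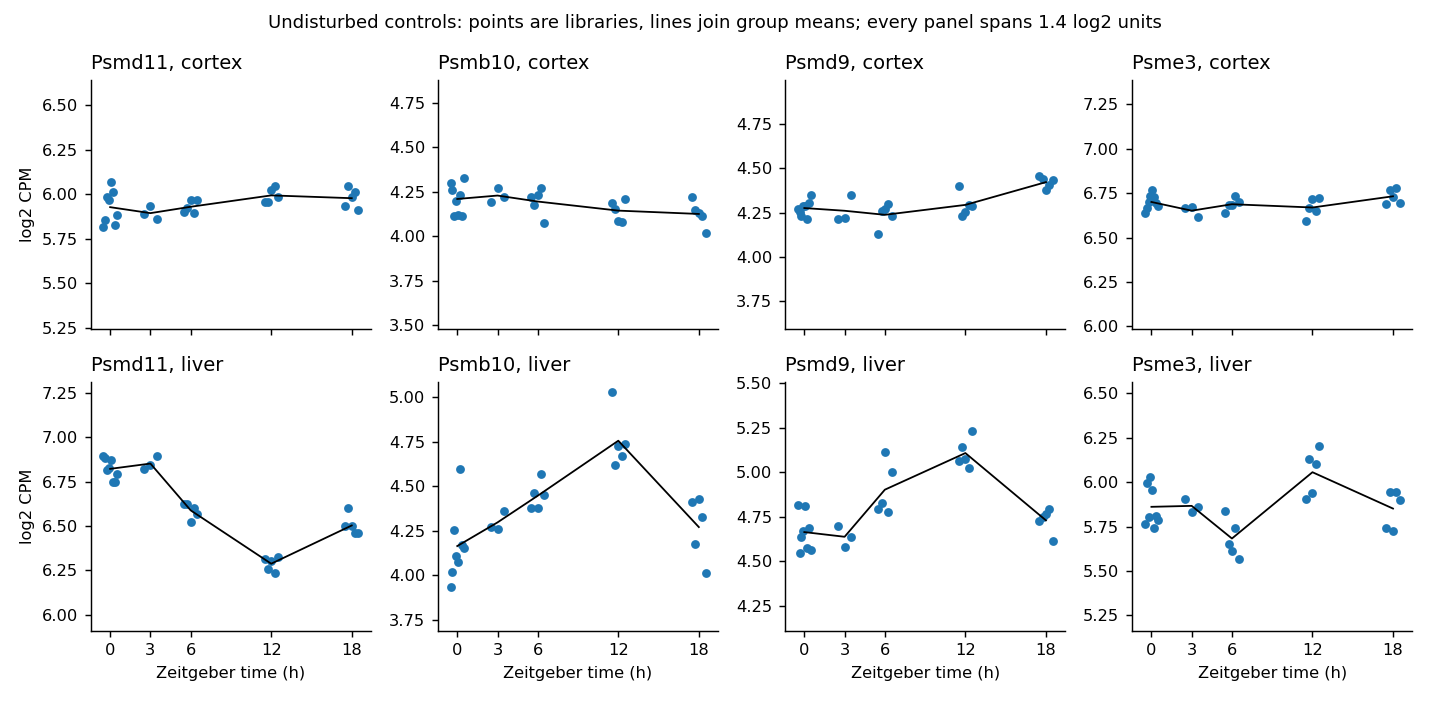
Log2 CPM of Psmd11, Psmb10, Psmd9 and Psme3 in the undisturbed control libraries of cortex (top) and liver (bottom) at the 5 Zeitgeber times, with points for libraries and lines through group means, each panel with the same span. In liver Psmd11 is lowest at ZT12 while Psmb10, Psmd9 and Psme3 are highest there, and in cortex the group means of each gene lie within 0.18 log2 units.

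In cortex the smallest p over the control times was that of Psmf1. Its ZT0 controls had 4.87 to 5.06 log2 CPM, its ZT3 controls 5.15, 5.16 and 5.19, its ZT6 controls 5.21 to 5.39, its ZT12 controls 5.23 to 5.34 and its ZT18 controls 4.86 to 4.99. Libraries of ZT6 and ZT12 overlapped with each other, as did those of ZT18 and ZT0, and the 2 pairs did not overlap (range of means 0.38, limma F test adjusted p = 2.0e-11). Against ZT0, Psmf1 rose by 0.22 at ZT3, by 0.36 at ZT6 and by 0.34 at ZT12. The call at ZT3 was lost without T3N4 (limma adjusted p = 0.0883). The other called genes of cortex were Psmd9 and Psmc3, both highest at ZT18 (ranges of 0.18 and 0.16), Psma4 and Psme4, both highest at ZT12 (0.17 and 0.15), Psmb5, highest at ZT0 (0.17), and Psmb9, lowest at ZT12 (0.79, at a level near 1 CPM). Psmb9 lost its call without T12N5 (adjusted p = 0.115). Against ZT0, limma called 1 gene at ZT3, 3 at ZT6, 7 at ZT12 and 2 at ZT18 in cortex, where 4.57%, 24.1%, 26.8% and 6.94% of all genes were called.

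The course over the control times differed between the tissues in 16 of the 47 genes by limma's interaction test, where 45.9% of all genes did. The smallest p were those of Psmd11 (adjusted p = 1.9e-15), Psmd9 (2.6e-06) and Psmb10 (1.9e-05). With cortex and liver paired by animal the number was 14, without Psma5 (adjusted p = 0.0794) and Psmd8 (0.0910). Psmd9 was called in both tissues with different peaks, at ZT12 in liver and at ZT18 in cortex. Psmf1, also called in both, was lowest at ZT18 in each and highest at ZT12 in liver and at ZT6 in cortex, with a range of 0.23 in liver and 0.38 in cortex (interaction adjusted p = 0.00011).

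Of the 5 called liver genes that were highest at ZT12, Psmd9, Psmb10 and Psme3 are shown with the stretches before their annotated starts because these hold the E-box CACGTG, while the promoters of the other two, Psme1 and Psmf1, do not. Those of Psmf1 and Psmd11, the genes with the smallest p in cortex and liver, are shown beside them. Sequences are from RefSeq on GRCm38.p6 and run 5′ to 3′ on the strand of the gene. The capitals mark the E-box CACGTG, the palindrome that clock factors such as CLOCK and BMAL1 can bind, so that both strands read alike. Psmd9 is shown from 150 bases before the start to the base before it, chr5:123228040-123228189 on the plus strand, Psme3 likewise at chr11:101316063-101316212 (plus), Psmd11 at chr11:80428465-80428614 (plus) and Psmf1 at chr2:151741311-151741460 (minus). Psmb10 is shown from 150 to 53 bases before the start, chr8:105938445-105938542 on the minus strand, since the rest lies in an exon of another annotation (GENCODE M21). The RefSeq starts of Psmd9 and Psmf1 lie inside the longer GENCODE gene bodies.
Psmd9: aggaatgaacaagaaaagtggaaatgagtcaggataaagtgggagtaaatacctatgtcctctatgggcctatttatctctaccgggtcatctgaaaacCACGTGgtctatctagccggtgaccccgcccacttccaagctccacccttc
Psmb10: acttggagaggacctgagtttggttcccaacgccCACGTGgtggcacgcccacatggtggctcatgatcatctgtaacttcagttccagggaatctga
Psme3: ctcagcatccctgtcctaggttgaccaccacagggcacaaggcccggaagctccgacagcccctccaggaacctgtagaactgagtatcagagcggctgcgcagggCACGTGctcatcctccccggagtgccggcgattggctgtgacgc
Psmd11: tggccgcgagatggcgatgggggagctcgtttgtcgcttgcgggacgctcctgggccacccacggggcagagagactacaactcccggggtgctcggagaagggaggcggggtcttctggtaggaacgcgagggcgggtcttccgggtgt
Psmf1: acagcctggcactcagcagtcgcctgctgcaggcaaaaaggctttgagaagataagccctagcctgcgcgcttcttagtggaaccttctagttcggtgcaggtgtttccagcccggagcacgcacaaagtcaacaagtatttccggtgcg
The E-box begins 51 bases before the start in Psmd9, 116 in Psmb10 and 44 in Psme3, and the stretches of Psmd11 and Psmf1 hold none.

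Over the 250 bases before the start, 40 of the 48 genes had a RefSeq promoter. CACGTG was in 4 of the 40 (10%; Psma4, Psmb10, Psmd9 and Psme3), beside 6.86% of the 27025 genes with a promoter. Of the 13 matched genes called over the control times in liver 3 held it, and of the 6 in cortex 2. CCAAT, the box bound by NF-Y, was searched on both strands and was in 14 of the 40 (35%) beside 37.5% of all genes. TGACNNNGC, the core of the antioxidant response element read by NFE2-type factors such as Nfe2l1, was searched on both strands and was in 5 (12.5%; Psmb5, Psmb6, Psmc6, Psmd9 and Psmd12) beside 11.5%. None of the 3 motifs contains another. A match describes the letters of the window and no binding.

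Among the other genes of the pathway, 9 maturation and associated factors, 5 transcription factors or their activators, 16 genes of ubiquitin supply and substrate delivery and the subunits Adrm1 and Sem1, which lie outside the naming rule, were counted in the same way. In cortex at T27, Pomp and Akirin2, which help build the core and carry proteasomes into the nucleus, rose by 0.18 and 0.20, and Ddi2, the protease that activates Nfe2l1, rose by 0.20, where 16.4% of all genes were called. At T30, where 32.4% were, 6 of the 16 ubiquitin and delivery genes rose and 1 fell, 1 of 5 transcription genes rose (Ddi2, by 0.26) and 1 of 9 maturation genes fell (Zfand5, by 0.21). Uba6, an activating enzyme for ubiquitin, rose by 0.37 (limma adjusted p = 0.00083), and of the pair that serves the segregase p97, Nploc4 rose by 0.15 (0.00080) while Ufd1 fell by 0.26 (4.4e-07). Nfe2l1 itself, the transcription factor that drives subunit genes when the proteasome is inhibited, differed by +0.02 in cortex and by +0.29 in liver (limma adjusted p = 0.706 and 0.0503). In liver at T30, Ubqln4, a shuttle to the proteasome, rose by 0.41 and the polyubiquitin gene Ubb by 0.55, the 2 of the 16 that rose, while 1 fell, beside 12.8% of all genes called there in either direction. In liver at T36, Pomp rose by 0.39 (limma adjusted p = 0.0120), as the 1 of 9 maturation genes called, where 1.69% of all genes were. Adrm1 and Sem1 were called at none of T27, T30, T36 and T42 in either tissue.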

How the data were processed

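Cortex and liver RNA of 62 mice was sequenced with a stranded mRNA kit, per the labels' protocols, which describe the liver; the cortex libraries are labelled as re-analysed. Per the submitters' processing notes, fastp, STAR 2.7.0e and edgeR were used with GRCm38 (mm10). The authors deposited log2 CPM values in 1 table per tissue, so the depth of each library is unknown and no count test was possible. The sources used here do not give the strand setting of the counting, so overlapping genes on opposite strands cannot be told apart. Rows without a gene name (0.0618% of CPM in cortex and 0.0337% in liver) were left out.

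From these values, limma 3.58.1 (R 4.3.3; lmFit, eBayes with a mean trend) was fitted to all 17 groups of a tissue. The deposited values lacked 1 dimension in cortex, that of the labelled batch, and 2 in liver, so the fits held the batch and, in liver, a factor of 3 levels (50, 8 and 4 libraries) read from the missing dimensions. These show levels only within a group. In 9 liver groups (T27, T30, T48, T54, T78, T192, T198, ZT12 and ZT18) all libraries shared 1 level, and which one cannot be read. They were set to the first, the usual level of the other groups, so liver differences that involve them, such as at T30, T36 and T78, rest on this assignment. Residual degrees of freedom were 44 and 42, and 86 for the interaction of both tissues. Liver differences are adjusted for these terms and depart slightly from those of group means. p-values were two-sided, Benjamini-Hochberg adjusted within each comparison. Nothing in the labels gives more than 1 animal per library, and p-values measure the spread between these animals.

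Every subunit gene is counted. The rule for names took, per tissue, the gene of smallest p in each group at T30, the 3 of smallest p over the control times and at T30, up to 3 per tissue test, up to 4 per pathway list, and Psmb5 to Psmb10; further called genes were named after their values were seen. The gene set, lists and tests were chosen with earlier results of these data known. The scripts were tested on simulated data. Alternatives were another scale, filter, centring, batch term, controls of 1 batch, each library left out, and cortex and liver paired by animal. The deviations of the 2 tissues of an animal had a median correlation of 0.026 (-0.088 to 0.16), above 0.1 in 7 of 62 animals. In 32 of the 62, the cortex correlated best within its group with the liver of the same animal. The animal codes in the labels give the pairing, which the main tissue tests did not use. Exon lengths and positions are from GENCODE M21, promoters from RefSeq (GRCm38.p6).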

Additional observations from a re-analysis of the deposited data

Results flagged for a closer look

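Among 160 sets of 4 to 10 libraries (single genes and group means), 11 (6.875%) held a library far from the others of its group, where chance gives about 1 in 20. In cortex these were Psmb5 at ZT0 (4.15 log2 CPM, lowest of 8, next 4.22), Psmb8 at ZT0 (0.20, lowest of 8, next 0.69), Psmc1 at ZT0 (6.80, highest of 8, next 6.72) and Psmc4 at ZT18 (6.20, highest of 5, next 6.09). In liver they were Psmb5 at ZT0 (4.74, lowest of 8, next 4.89), Psmb7 at ZT0 (6.87, highest of 8, next 6.76), Psmb8 at ZT18 (4.79, highest of 5, next 4.31) and Psmb10 at ZT12 (5.03, highest of 5, next 4.74). Group means that stood apart in liver were those of the 19S base at ZT6 (6.53, next 6.46), the alpha ring at ZT0 (5.59, next 5.44) and the inducible subunits at ZT12 (4.48, next 4.16).

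The course over the control times differed between the tissues in 16 of the 47 genes, a smaller share than the 45.9% of all genes. The smallest p were those of Psmd11 (limma adjusted p = 1.9e-15), Psmd9 (2.6e-06) and Psmb10 (1.9e-05). They were also found for the effect of deprivation on Psmf1 at T30 (cortex minus liver -0.39), on Psmd4 at T36 (-0.37) and on Psme3 at T36 (+0.30).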

How the results depend on the processing

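No called difference among those recomputed changed sign under any alternative that was run. Some that were not called, near 0, did, mostly when 1 library was left out (Psmb8 in cortex at T27 ranged from -0.17 to +0.28). Of the numbers of subunit genes called, cortex at T27 gave 1 with every library centred on its median. With the controls of the same batch only, cortex at T30 gave 4 and at T36 gave 0. With the labelled batch alone in liver, T30 gave 2 and T36 gave 2. With the replicate block, in which cortex and liver were paired within each animal, the tissue test at T36 gave 1, and no other call count moved by more than 1.5 times.

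Leaving out each library in turn gave, in cortex, 1 to 2 called genes at T27, 3 to 11 at T30, 0 to 1 at T36, 0 to 1 at T42, 0 to 2 summed over T48 to T198, 6 to 11 over the control times and 9 to 15 summed over the times against ZT0. In liver the ranges were 0 to 0 at T27, 0 to 6 at T30, 0 to 5 at T36, 0 to 0 at T42, 0 to 0 over T48 to T198, 12 to 15 over the control times and 16 to 23 against ZT0. Tissue tests ranged from 0 to 0 at T27, 1 to 7 at T30, 0 to 5 at T36, 0 to 0 at T42 and 13 to 16 for the control times. Without T6N3, cortex at T30 and over the control times gave 11 each, and without T30S4 cortex at T30 gave 3. Cortex after T42 gave 1 without T48S3 and 2 without T54S4. Liver at T30 gave 6 without T30S3, 2 without J76N1 and 0 without T30S1 or T30S4, and liver at T36 gave 5 without T36S4, 2 without T12N1 and 1 without T36S1. The tissue test gave 7 at T30 without T30S3 and 2 without T6N3, and at T36 it gave 5 without T36S4 and 0 without T12N2. The share of all genes called is not given for these refits or for the alternatives above. The cause of the shifts was not tested. Depth per library is unknown, and 3 deprived libraries a group limit the precision, most of all in liver.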
